A study of Homo sapiens with 6 samples.

Results

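The mRNA levels of the 10 genes that encode the 2 human condensin complexes and the 2 type II DNA topoisomerases were described in MDA-MB-231 cells with and without Parishin B (PB). The genes were SMC2 and SMC4, whose products are shared by both condensins, NCAPD2, NCAPG and NCAPH of condensin I, NCAPD3, NCAPG2 and NCAPH2 of condensin II, and TOP2A and TOP2B. They were chosen by symbol, and each matched 1 row of the table, so that 10 of 61806 genes were members. MDA-MB-231 is an established human triple-negative breast cancer line with a mesenchymal character. The study examined PB, which it selected as an inhibitor of the pseudokinase TRIB3, and used RNA-seq of 3 control and 3 PB samples to look for the processes that PB changes in these cells. The PB samples had been given 20 µM PB for 24 h, and the control samples carried no PB. No genetic change between the groups is described, and what the control received in place of PB is not given in the sources used here. Poly(A) RNA was sequenced in paired ends. One cell line was used, and nothing in the labels says that the replicates were separate cultures, so p-values measure the spread between these samples, which may be technical.

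Condensins are ring-shaped ATPases that fold chromatin into loops and shape mitotic chromosomes. SMC2 and SMC4 form the ATPase core, the NCAPH or NCAPH2 kleisin closes the ring, and NCAPD2, NCAPG, NCAPD3 and NCAPG2 are HEAT-repeat subunits that bind DNA and the kleisin. Condensin II resides in the nucleus through the cell cycle and begins to act in prophase, whereas condensin I is mostly cytoplasmic until the nuclear envelope breaks down. Type II topoisomerases pass one DNA duplex through a transient break in another, and TOP2A is made mainly by cycling cells to untangle sister chromatids, while TOP2B is also made by cells that have left the cycle and acts at transcribed genes. Both enzymes are targets of etoposide and doxorubicin.

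Total counts ran from 15681655 to 21986948, and replicates differed by slightly more than sampling noise, the chi-square divided by its degrees of freedom running from 1.45 to 1.92. Markers of the line moved between the groups. The 8 mesenchymal markers summed to between 1052 and 1080 FPKM in control and between 990.0 and 993.7 FPKM in PB, with VIM, vimentin, alone at 603 and 635 FPKM. By the edgeR test described below, 7 of the 8 were lower, VIM among them (log2 fold change -0.059), and 1, ZEB1 (0.12), was higher. That test called 26.1% of the genes tested lower and 24.1% higher. With samples scaled by library size alone, 6 of the 8 were lower and 2 higher, VIM then being higher (0.075). Among all 24200 genes tested that scaling gave 4879 lower and 7679 higher. FN1 (7.25 to 2.90 FPKM) and CAV1 (71.1 to 34.9 FPKM) fell by more than 2-fold. The 10 epithelial markers summed to between 396 and 404 FPKM in control and between 160 and 165 FPKM in PB, nearly all of it KRT18 (286 to 121 FPKM) and KRT8 (107 to 38.9 FPKM). CDH1, E-cadherin, at 3.98 FPKM, and ELF3, at 1.99 FPKM, were present in the control samples and had at most 2 and 1 counts in a PB sample, while ESRP1 rose from 0.397 to 1.35 FPKM and GRHL2 and CLDN7 were near 0 in both groups. The 5 hormone receptor markers summed to at most 4.91 FPKM, with ESR1 and PGR at no more than 0.147 FPKM on average. Most of the sum was ERBB2 (2.95 to 3.59 FPKM) and FOXA1 (1.03 to 0.537 FPKM). Of the 4 tested, 1 was lower (FOXA1), 2 were higher (ERBB2 and ESR1) and 1 did not pass. Elsewhere in the data, 113 genes reached 30 counts in all control samples while no PB sample exceeded 3, and 1 gene showed the opposite, these 113 genes holding at most 0.181% of the control counts. Whether the control and PB samples held the same cells was not tested, nor was the part of these differences in the changes of the members.

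All 10 genes had lower mRNA levels in the PB samples. The largest falls were those of NCAPH, NCAPG and TOP2A, by 3.83-, 3.76- and 3.74-fold, and the smallest were those of NCAPH2, by 1.50-fold, and TOP2B, by 1.28-fold. Condensin I subunits fell by more than their condensin II counterparts for the kleisins and for NCAPG against NCAPG2, but NCAPD2 fell by less than NCAPD3. Levels below are FPKM, the count of a gene scaled by its exonic length in kilobases and by the sample's total count, and changes are log2 fold changes of PB against control from edgeR, which scales the samples on most genes in place of the total count. With this scaling the falls come out larger than the FPKM means alone give: scaling by library size alone moved the median of all genes up by 0.127 on the log2 scale. In these bulk samples, fewer cycling cells and less RNA per cell cannot be told apart.

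The 10 genes passed edgeR's quasi-likelihood test (adjusted p no higher than 0.05, Benjamini-Hochberg over the genes tested), all in the lower direction, where 26.1% of the 24200 genes tested were lower. None of the 10 was higher, against 24.1% of the genes tested. Differentially expressed genes (DEGs) also had to change by 1 or more on the log2 scale, and 8 of the 10 were lower DEGs, against 6.73% of the genes tested, while 0 were higher DEGs, against 5.36%. NCAPH2 and TOP2B were the 2 that were lower without being DEGs. The study's methods put the DEG line at 2 on a log scale whose base they leave out. With a log2 line of 2 the lower DEGs among the 10 numbered 0. The share of all genes tested past that line was not counted, so this 0 is not read as a result about the members. CDK1, BUB1 and KIF11, which the study names among genes with significant changes, had log2 fold changes of -1.57, -1.97 and -1.42 here. They too would fall short of a log2 line of 2. These are mRNA values. By other measures the study reports a G2/M block in flow cytometry and higher CDK1 and cyclin B1 protein in mice given PB. With library size alone the DEGs among all genes numbered 1336 lower and 1809 higher, in place of 1629 and 1296, and 8 of the 10 were still lower DEGs. The log10 of the edgeR adjusted p of the 8 lay between -1334 for TOP2A and -300.3 for NCAPG2, but its size rested on the fit: for TOP2A it was -40.7 without PB replicate 3, -48.7 with a minimum mean of 1 FPKM and -7.26 with limma on log2(FPKM + 0.1). The largest adjusted p of the 8 under any alternative was 2.56e-06, for NCAPD3. In each of the 10 genes the highest PB sample lay below the lowest control sample, as was so, on normalized values, for 28.2% of the genes tested. The median log2 fold change was -1.38 over the 10 genes and 0.011 over all genes tested. Replicates lay close together, with coefficients of variation of the FPKM values from 0.375% to 4.76% in control and from 0.644% to 6.79% in PB, and the counts behind these values ran from 345 to 19296.

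The sequences upstream of 4 start sites are shown because the genes span the range of changes and differ in the motifs of genes expressed late in the cell cycle. Promoter sequences came from RefSeq (GRCh38.p14), in which 9 of the 10 genes had an entry, NCAPH2 being the other, and the 250 bases before the start site nearest to the gene's start in the table are given 5′ to 3′ on the strand of the gene. Capitals mark the CCAAT box (CCAAT or its reverse complement ATTGG), which the factor NF-Y binds, and the CHR element (the letters TTTGAA with their reverse complement TTCAAA, and the variant form TTTAAA), a motif of cell cycle promoters. The stretches lie at chr17:40417897-40418146 for TOP2A, chr3:25664908-25665157 for TOP2B, chr12:6493852-6494101 for NCAPD2 and chr4:17810729-17810978 for NCAPG, and the start site used for NCAPD2 is 746 bases inside the gene's start in the table.
TOP2A: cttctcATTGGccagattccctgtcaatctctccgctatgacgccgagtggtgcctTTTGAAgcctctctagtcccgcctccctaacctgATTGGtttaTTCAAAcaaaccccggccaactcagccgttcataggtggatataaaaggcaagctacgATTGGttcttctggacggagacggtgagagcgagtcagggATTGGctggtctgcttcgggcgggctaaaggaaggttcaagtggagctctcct
TOP2B: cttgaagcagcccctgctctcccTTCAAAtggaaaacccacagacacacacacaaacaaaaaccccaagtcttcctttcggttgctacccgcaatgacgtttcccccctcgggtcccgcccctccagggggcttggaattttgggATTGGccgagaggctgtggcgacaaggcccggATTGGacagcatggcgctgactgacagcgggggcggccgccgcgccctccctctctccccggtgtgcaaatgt
NCAPD2: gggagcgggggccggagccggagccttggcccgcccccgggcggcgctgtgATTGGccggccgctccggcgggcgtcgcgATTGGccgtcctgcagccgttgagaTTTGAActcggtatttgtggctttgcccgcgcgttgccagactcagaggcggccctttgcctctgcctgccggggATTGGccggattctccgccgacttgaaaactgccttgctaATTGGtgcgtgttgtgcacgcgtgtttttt
NCAPG: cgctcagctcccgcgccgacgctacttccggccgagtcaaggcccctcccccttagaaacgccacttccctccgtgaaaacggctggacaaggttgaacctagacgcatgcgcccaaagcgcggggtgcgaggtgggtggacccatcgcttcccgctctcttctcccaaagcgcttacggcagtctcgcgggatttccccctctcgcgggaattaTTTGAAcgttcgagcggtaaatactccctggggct
TOP2A and NCAPD2 each held 4 CCAAT boxes, TOP2B held 2, and NCAPG held 0. CHR elements numbered 2 in TOP2A and 1 in each of the other 3 stretches. Of 35116 RefSeq promoters of the same length, 32.0% held at least 1 CCAAT box, 9.53% at least 2 and 2.93% at least 3, and 21.9% held a CHR element. NCAPG also had 2 matches to GCGGGAA or its reverse complement, an E2F site, which 5.52% of the promoters held once or more and 0.350% held at least 2 times. The nearest stretch of NCAPH had 1 CCAAT box and that of SMC4 1 CHR element, and those of SMC2, NCAPD3 and NCAPG2 had neither. RefSeq lists a second start for SMC2, SMC4, NCAPD3 and TOP2B, and the counts depend on it: the stretch before the other start of NCAPD3 had 2 CCAAT boxes and 1 E2F site, that of TOP2B had 0 CCAAT boxes and 0 CHR elements, and that of SMC4 had 0 CHR elements. The number of these matches did not order the changes: NCAPD2, with as many CCAAT boxes as TOP2A, fell by 2.32-fold and TOP2A by 3.74-fold, and NCAPG, with none, fell by 3.76-fold. GC boxes (GGGCGG on either strand), found in 42.6% of the promoters, were present in the nearest stretches of TOP2A, TOP2B, NCAPD2, NCAPH, NCAPD3 and NCAPG2. A match describes letters in these windows, and binding was not measured.

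The shared ATPase subunits were the starting point, since both complexes need them. SMC2 (ENSG00000136824, chr9:104094260-104141419, plus strand of hg38) had FPKM values of 43.6, 43.2 and 42.3 in control replicates 1 to 3 and of 20.6, 19.3 and 19.3 in PB replicates 1 to 3. The groups were separated by a wide gap. The mean level was 43.0 ± 0.677 in control and 19.7 ± 0.782 in PB (SD, n = 3 each), a log2 fold change of -1.26 (SE 0.030). SMC4 (ENSG00000113810, chr3:160399274-160434954, plus strand) had FPKM values of 72.8, 69.9 and 72.1 in control and of 22.5, 23.0 and 22.7 in PB. Its PB samples lay within 1 FPKM of each other and just above those of SMC2, although its control samples were far above. The mean level of SMC4 went from 71.6 ± 1.50 to 22.7 ± 0.288 (SD, n = 3 each), a log2 fold change of -1.79 (SE 0.026). The partners of the core thus fell unequally, and the ratio of SMC2 to SMC4 counts per kilobase rose from 0.601 to 0.868.

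**Figure D1:**
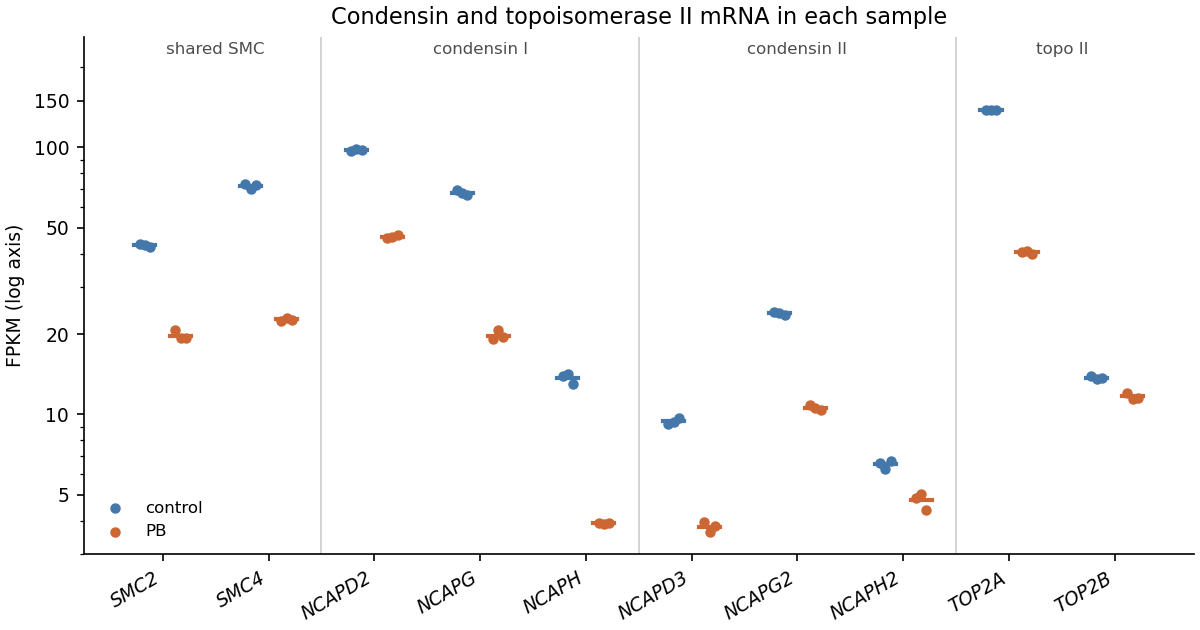
FPKM of each gene in each of the 3 control and 3 PB samples, on a log axis, with a bar at the group mean and the genes set out by complex. In every gene the 3 PB samples lie below the 3 control samples, with the narrowest gap in NCAPH2 (4.87, 5.02 and 4.40 in PB, 6.24 to 6.69 in control) and TOP2B (11.4 to 12.1 in PB, 13.5 to 13.9 in control).

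Condensin I, the form that compacts chromosome arms after the nuclear envelope breaks down, showed falls of unequal size. NCAPD2 (ENSG00000010292, chr12:6493356-6531955, plus strand), a HEAT-repeat subunit, had FPKM values of 97.2, 99.1 and 98.3 in control and of 45.8, 46.1 and 47.1 in PB. It was below TOP2A in control and had the highest level of the 10 genes in PB. The mean level was 98.2 ± 0.944 in control and 46.3 ± 0.661 in PB (SD, n = 3 each), with a log2 fold change of -1.22 (SE 0.024). NCAPG (ENSG00000109805, chr4:17810979-17844865, plus strand), the other HEAT-repeat subunit, had FPKM values of 69.5, 67.4 and 66.4 in control and of 19.2, 20.6 and 19.4 in PB. The PB samples of NCAPG were thus far below those of NCAPD2, and the ratio between the genes was larger than in control. The mean level of NCAPG went from 67.8 ± 1.60 to 19.7 ± 0.763 (SD, n = 3 each), with a log2 fold change of -1.91 (SE 0.030). NCAPH (ENSG00000121152, chr2:96335766-96377091, plus strand), the kleisin that bridges the SMC heads, had FPKM values of 13.96, 14.17 and 12.95 in control and of 3.91, 3.88 and 3.93 in PB. Its 3 PB samples were almost equal and well below the control samples. The mean level of NCAPH was 13.7 ± 0.652 in control and 3.91 ± 0.025 in PB (SD, n = 3 each), with a log2 fold change of -1.94 (SE 0.049).

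Condensin II, the nuclear form that starts to shorten chromosomes in prophase, had a lower mRNA level than condensin I in control, pair by pair. NCAPD3 (ENSG00000151503, chr11:134150113-134225504, minus strand), its counterpart of NCAPD2, had FPKM values of 9.19, 9.33 and 9.69 in control and of 3.94, 3.62 and 3.81 in PB. The groups were well apart, at a low level in both. The mean level was 9.40 ± 0.258 in control and 3.79 ± 0.161 in PB (SD, n = 3 each), with a log2 fold change of -1.45 (SE 0.035). NCAPG2 (ENSG00000146918, chr7:158631169-158704804, minus strand), the counterpart of NCAPG, had FPKM values of 24.15, 24.01 and 23.48 in control and of 10.9, 10.5 and 10.4 in PB. It was the most abundant condensin II subunit in both groups on this scale. The mean level of NCAPG2 was 23.9 ± 0.353 in control and 10.6 ± 0.230 in PB (SD, n = 3 each), with a log2 fold change of -1.31 (SE 0.035).

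NCAPH2, the kleisin of condensin II, changed least among the condensin genes. NCAPH2 (ENSG00000025770, chr22:50508224-50524780, plus strand) had FPKM values of 6.56, 6.24 and 6.69 in control and of 4.87, 5.02 and 4.40 in PB, from counts of 477, 477 and 656 and of 345, 351 and 372. The groups did not overlap, but its highest PB sample was closer to its lowest control sample than in NCAPD3 or NCAPG2. The mean level was 6.50 ± 0.232 in control and 4.76 ± 0.323 in PB (SD, n = 3 each), with a log2 fold change of -0.59 (SE 0.067) and an edgeR adjusted p of 1.49e-17. The log2 fold change of NCAPH2 was -0.46 with library size alone, -0.44 with limma on log2(FPKM + 0.1) and -0.38 with limma on log2(FPKM + 1), both limma fits also using library size alone.

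**Figure D2:**
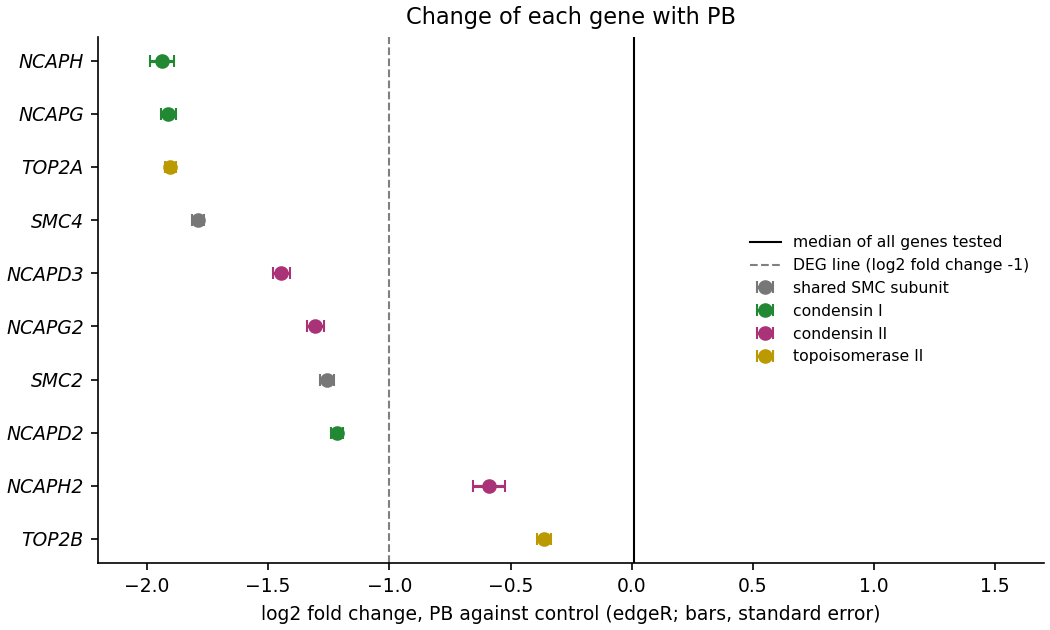
Log2 fold change of each gene, PB against control, from edgeR (x axis), with the standard error as bars, coloured by complex and ordered by size. Of the 10 genes, 8 lie to the left of the DEG line at -1, and NCAPH2 (-0.59) and TOP2B (-0.36) lie between it and the median of all genes tested (0.011).

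TOP2A, the topoisomerase of dividing cells and the most abundant of the 10 mRNAs in control, fell to below the level of NCAPD2. TOP2A (ENSG00000131747, chr17:40388525-40417896, minus strand) had FPKM values of 139, 138 and 138 in control and of 40.5, 40.8 and 40.0 in PB. These rested on counts of 14411, 15033 and 19296 in control and of 4103, 4082 and 4831 in PB. The 3 samples of each group were nearly equal and the groups were far apart. The mean level of TOP2A was 138 ± 0.517 in control and 40.5 ± 0.424 in PB (SD, n = 3 each), with a log2 fold change of -1.90 (SE 0.024). TOP2B (ENSG00000077097, chr3:25597978-25664909, minus strand), the form also made by resting cells, had FPKM values of 13.9, 13.5 and 13.6 in control and of 12.1, 11.4 and 11.5 in PB. Its groups came near to each other without overlapping. The mean level of TOP2B was 13.7 ± 0.183 in control and 11.7 ± 0.344 in PB (SD, n = 3 each), with a log2 fold change of -0.36 (SE 0.028) and an edgeR adjusted p of 8.24e-38. The size of the fall of TOP2B depended on the scaling, with a log2 fold change of -0.23 with library size alone and of -0.21 with limma on log2(FPKM + 1), and the direction was lower under each.

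By level, the order in control was TOP2A, NCAPD2, SMC4, NCAPG, SMC2, NCAPG2, NCAPH, TOP2B, NCAPD3 and NCAPH2, and of these neighbours the samples of NCAPH and TOP2B overlapped. SMC4 and NCAPG were separated by less than 1 FPKM, the lowest SMC4 sample being at 69.9 and the highest NCAPG sample at 69.5. In PB the order was NCAPD2, TOP2A, SMC4, NCAPG, SMC2, TOP2B, NCAPG2, NCAPH2, NCAPH and NCAPD3, with overlap between NCAPG and SMC2 and between NCAPH and NCAPD3. TOP2A, NCAPH and TOP2B were among the genes that changed place. This order holds for all exonic bases: divided by the principal transcript described below, TOP2B stood at place 5 in control and 3 in PB in place of 8 and 6, and NCAPH at place 9 and 10 in place of 7 and 9. By size of the change, NCAPH, NCAPG and TOP2A could not be put in order, since neighbours differed by 0.026 (combined SE 0.058) and 0.0085 (combined SE 0.039) on the log2 scale. NCAPG2, SMC2 and NCAPD2 were also close, with differences of 0.047 (combined SE 0.046) and 0.041 (combined SE 0.038). Among the 24200 genes tested, the log2 fold changes of the members stood between the 3.91 percentile (NCAPH) and the 28.0 percentile (TOP2B), counted from the lowest.

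Ratios within a sample were compared for 5 pairs, because the scaling of the library cancels in them. Each ratio is of counts per kilobase of exonic length, on the log2 scale. The ratio of TOP2A to TOP2B was 3.32, 3.35 and 3.34 in control and 1.75, 1.84 and 1.79 in PB. The topoisomerase ratio was therefore lower in every PB sample, going from 10.1-fold to 3.47-fold, and the difference of the log2 fold changes was -1.54 (combined SE 0.037). For the kleisins, NCAPH to NCAPH2 was 1.09, 1.18 and 0.95 in control and -0.32, -0.37 and -0.16 in PB. NCAPH was thus above NCAPH2 in each control sample and below it in each PB sample, and the difference of the log2 fold changes was -1.35 (combined SE 0.083). For the G subunits, NCAPG to NCAPG2 was 1.53, 1.49 and 1.50 in control and 0.82, 0.97 and 0.90 in PB, a difference of -0.61 (combined SE 0.046). This pair moved the same way as the kleisins, by a smaller amount.

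The D subunits moved the opposite way. NCAPD2 to NCAPD3 was 3.40, 3.41 and 3.34 in control and 3.54, 3.67 and 3.63 in PB, a difference of 0.23 (combined SE 0.043). This difference was 0.21 with limma on log2(FPKM + 0.1) and 0.051 with limma on log2(FPKM + 1). NCAPD2 thus rose relative to NCAPD3 while both fell. The core pair, SMC2 to SMC4, was -0.74, -0.69 and -0.77 in control and -0.12, -0.25 and -0.23 in PB, a difference of 0.53 (combined SE 0.039). For each of the 5 pairs the control and PB ratios did not overlap, and the exact two-sided permutation test gave p = 0.1 (adjusted p = 0.1 over the 5 pairs), the smallest p that 3 samples against 3 can give. The mean log2 fold change was -1.69 over the 3 condensin I subunits (range -1.94 to -1.22) and -1.11 over the 3 condensin II subunits (range -1.45 to -0.59), a difference of -0.58. The ranges overlapped, since NCAPD2 changed by less than NCAPD3 and NCAPG2. Condensin I fell by more than condensin II in the kleisins and G subunits and by less in the D subunits, so the complexes were not separated in the same direction by all pairs.

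**Figure D3:**
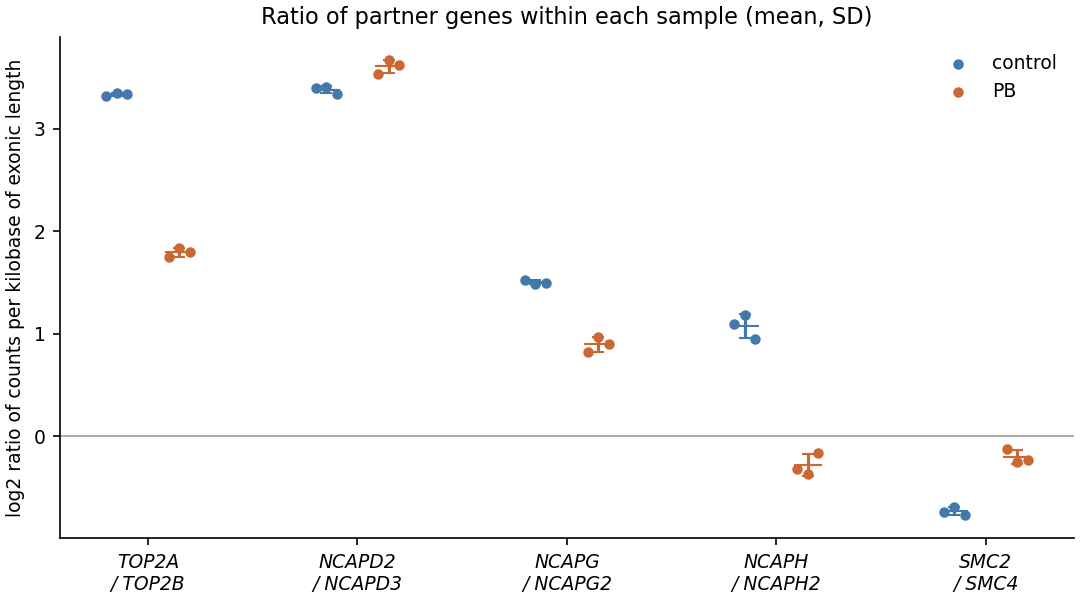
Log2 ratio of counts per kilobase of exonic length between partner genes within each sample (y axis), with the mean and SD of the 3 control and 3 PB samples. The ratio is lower in PB for TOP2A to TOP2B, NCAPG to NCAPG2 and NCAPH to NCAPH2, and higher for NCAPD2 to NCAPD3 and SMC2 to SMC4.

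Levels between genes depend on the length by which counts are divided. The table divides by all exonic bases of a gene, which came to 18645 bases for TOP2B and 18698 bases for NCAPD3, whereas the principal transcript of GENCODE release 29 had 5389 bases for TOP2B and 5061 bases for NCAPD3. For TOP2A the lengths were 6374 and 5758 bases. Dividing by the principal transcript, an alternative chosen after the data were seen, gave mean levels of 153 for TOP2A and 47.3 for TOP2B in control and of 44.8 and 40.4 in PB. On that scale the TOP2A level was 3.23 times that of TOP2B in control and 1.11 times in PB. The share of TOP2A in the summed level of TOP2A and TOP2B was 91.0% ± 0.079 in control and 77.6% ± 0.549 in PB (SD, n = 3 each) with all exonic bases, and 76.4% ± 0.175 and 52.6% ± 0.788 with the principal transcript. The share was lower in every PB sample on both scales, and the drop was the larger on the transcript scale. Condensin I made up 81.9% ± 0.179 of the summed level of the 6 non-SMC subunits in control and 78.5% ± 0.652 in PB with all exonic bases, and 70.3% ± 0.411 and 65.8% ± 0.857 with the principal transcript. Its share was thus lower in PB by a few percentage points, far less than that of TOP2A. With all exonic bases NCAPD2, which rose relative to NCAPD3, held 98.2 of the 180 FPKM of condensin I in control. In PB it held 46.3 of 69.9 FPKM, so this share follows NCAPD2 more than NCAPG or NCAPH. The lengths by which counts are divided cancel in the change of a single gene.

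**Figure D4:**
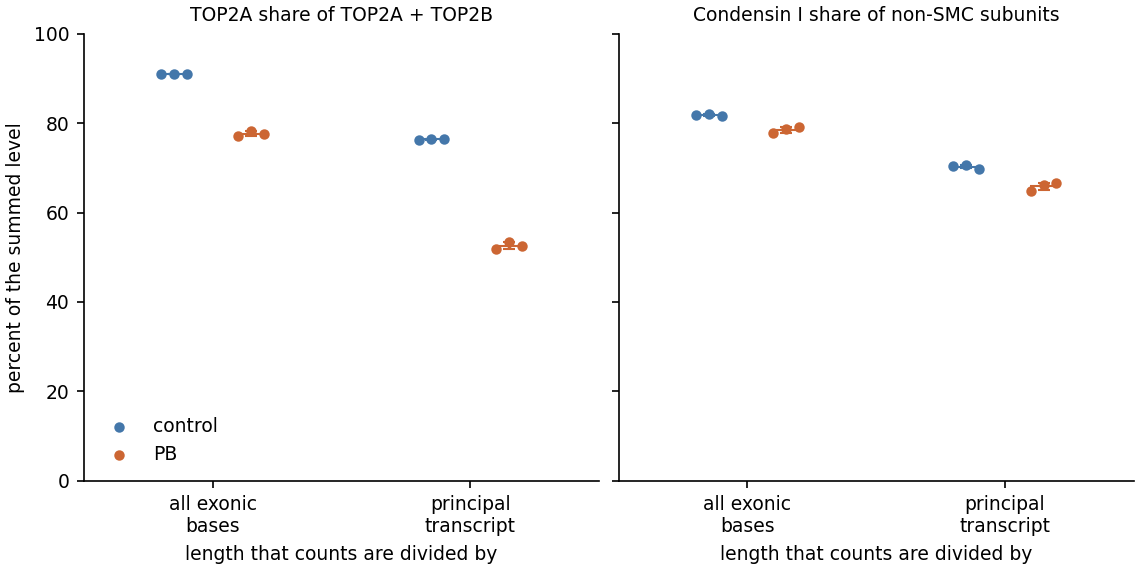
Percent of the summed level that TOP2A takes of TOP2A and TOP2B (left) and that condensin I takes of the 6 non-SMC subunits (right), in each sample, with the mean and SD, for counts divided by all exonic bases or by the principal transcript. TOP2A goes from 91.0% to 77.6% or from 76.4% to 52.6%, and condensin I from 81.9% to 78.5% or from 70.3% to 65.8%.

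Genes whose profile over the 6 samples was most like that of TOP2A were CENPI, a centromere protein, NCAPG itself, and AURKA, a mitotic kinase, among 12455 genes with a symbol and a mean FPKM of at least 1. Likeness was the Euclidean distance of centred log2 values, which was 0.035 for CENPI, 0.077 for NCAPG and 0.083 for AURKA. Their log2 fold changes were -1.90, -1.91 and -1.94. For TOP2B the nearest were HLTF, a DNA translocase, at 0.018, TOPORS, a ubiquitin ligase that binds topoisomerase I, at 0.020, and BUD13, a splicing factor, at 0.028, with log2 fold changes of -0.37, -0.36 and -0.37. The 6 samples make 2 groups of 3, so the distance reflects mainly the size of the change.

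Other genes of chromosome structure were taken from 4 lists. Their counts stand beside 26.1% lower, 24.1% higher and 6.73% lower DEGs among all genes tested. Of 12 condensin partners and proteins of the chromosome surface, 9 were lower, 1 was higher and 2 did not pass, with a median log2 fold change of -0.68. MKI67, the surface protein that keeps mitotic chromosomes apart, went from 65.6 to 14.9 FPKM (log2 fold change -2.27), KIF4A, the kinesin that works with condensin I on chromosome arms, from 48.9 to 18.5 (-1.53), and NUSAP1, a spindle protein that binds chromosomes, from 2.45 to 0.987 (-1.43). These 3 were the lower DEGs of the list. PHF8, a histone demethylase, rose from 6.94 to 9.81 FPKM (0.36), and KMT5A, which methylates histone H4, had a log2 fold change of -0.012 (edgeR adjusted p = 0.827).

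Of 11 other topoisomerases and genes for the repair of topoisomerase adducts, 8 were lower, 1 was higher and 2 did not pass, with a median of -0.78. The lower DEGs were BLM, the helicase that works with topoisomerase III (7.07 to 3.11 FPKM, log2 fold change -1.32), TDP1, which removes trapped TOP1 (13.98 to 7.32, -1.07), and SPRTN, a protease of DNA-protein crosslinks (5.35 to 2.91, -1.02). TDP2, which removes trapped TOP2, was at 34.0 FPKM in control and 39.8 in PB, a log2 fold change of 0.095 with an edgeR adjusted p of 0.0150. TOP1MT, the mitochondrial type IB enzyme, had a log2 fold change of 0.10 and did not pass (edgeR adjusted p = 0.176). TDP2 was thus not among the lower genes of the list.

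Cohesin holds sister chromatids together and is built on its own SMC pair. Of 19 genes of cohesin and its regulators, 11 were lower, 4 were higher and 4 did not pass, with a median of -0.49. The 7 lower DEGs were PTTG1 (securin, 98.4 to 31.7 FPKM, log2 fold change -1.76), ESCO2 (an acetyltransferase of S phase, 5.42 to 1.76, -1.75), ESPL1 (separase, 10.7 to 4.00, -1.56), SGO2 (a protector of centromeric cohesin, 22.7 to 8.62, -1.53), SGO1 (likewise, 11.2 to 5.23, -1.24), SMC1A (a core subunit, 34.7 to 18.5, -1.04) and CDCA5 (sororin, 24.8 to 13.6), which lay just past the DEG line. Of these, 6 are regulators and SMC1A is a ring subunit. The genes highest in log2 fold change were HDAC8, the SMC3 deacetylase (1.01 to 1.57 FPKM, 0.49), and MAU2, of the cohesin loader (3.57 to 5.15, 0.40), and both rose. The SMC5/6 complex, the third SMC complex, changed least. Of its 8 genes 4 were lower, 1 was higher and 3 did not pass, with a median of -0.12, SLF1 (5.76 to 3.11 FPKM, -1.02) being the 1 DEG. NSMCE4A fell from 13.7 to 10.1 FPKM (-0.58), NSMCE3 rose from 4.95 to 6.23 (0.20), and NSMCE1 had a log2 fold change of 0.079 (edgeR adjusted p = 0.163).

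With library size alone in place of the edgeR scaling, tried on the lists after the data were seen, cohesin had 11 genes lower and 8 higher, and SMC5/6 had 2 lower and 3 higher with a median of 0.016, so the direction of the SMC5/6 median turned and is not given as a fall. The DEGs of these lists became 5 for cohesin, 0 for SMC5/6, 1 for the other topoisomerases and 3 for the condensin partners. SMC1A, CDCA5, SLF1, TDP1 and SPRTN were DEGs with the edgeR scaling and were lower without being DEGs with library size alone. Over all 24200 genes tested, library size alone gave 4879 lower and 7679 higher, with 1336 lower DEGs. No list was tested as a set.

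**Figure D5:**
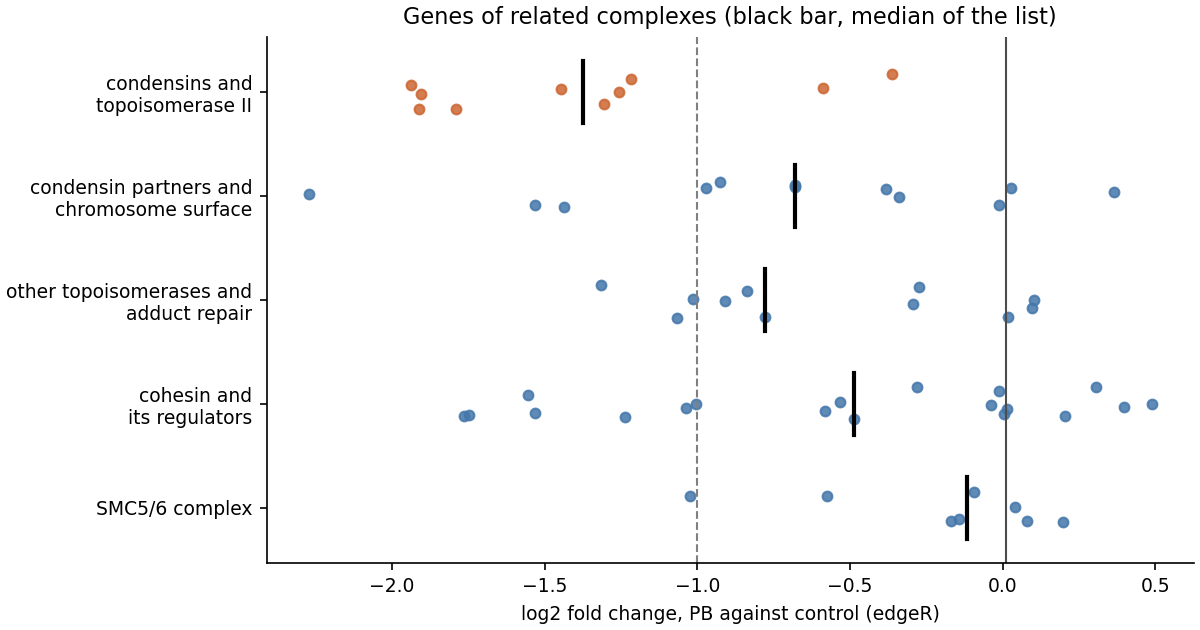
Log2 fold change, PB against control, of the 10 condensin and topoisomerase II genes and of the genes tested in 4 related lists (x axis), 1 point per gene, with the median of each list as a black bar, the median of all genes tested as a solid line and the DEG line at -1 dashed. The medians are -1.38, -0.68, -0.78, -0.49 and -0.12 from top to bottom.

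Cell cycle genes moved in the same samples. In the phase lists of the Seurat package, 50 of 51 tested G2/M genes outside the members were lower (median log2 fold change -1.54), as were 42 of 43 S phase genes (median -1.29). Among all genes tested 26.1% were lower. TOP2A, SMC4 and NCAPD2 are themselves in the G2/M list, and NCAPH, NCAPG, SMC2, TOP2B and the condensin II genes are in neither list. The part of the cell cycle genes in the changes of the members was not tested.

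Annotated genes on the opposite strand overlap some members. Those with at least 30 counts in every sample were IFT80 (607 bases shared between the gene spans, log2 fold change 0.15) and TRIM59 (2510 bases, -0.72) at SMC4, MRPL51 (486 bases, -0.61) at NCAPD2, LCORL (3679 bases, -0.41) at NCAPG, and VPS26B (834 bases, -0.074) and JAM3 (1889 bases, 0.020) at NCAPD3. Each of these changed by less than the member that it overlaps. Whether reads were counted by strand is not given in the sources used here, so reads from these overlaps are uncertain, as are reads that fit both of the paralogs TOP2A and TOP2B.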

How the data were processed

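The 3 control and 3 PB samples were grouped by their labels, with dose and time from the study's methods. The authors deposited raw counts per gene, used here as deposited. FPKM values were deposited beside them, and 100% were within 0.0051 of the value recomputed from the count, the exonic length and the total. Per the labels, the submitters' notes name HTSeq 0.6.1, Cufflinks 2.2.1, DESeq2 and hg38. The aligner and the strandedness are not given in the sources used here. The columns of the authors' own comparison were not used.

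The 24200 genes whose FPKM averaged 0.1 or more were tested with edgeR 4.0.16 in R 4.3.3 (TMM factors 0.948 to 1.05, quasi-likelihood test, Benjamini-Hochberg adjustment), where the study used DESeq2. DEGs passed 0.05 in adjusted p and 1 in log2 fold change, in either direction. Ratios of pairs were compared with an exact permutation test (scipy 1.17.1). The procedure was run on simulated data in which far fewer genes changed and replicates varied more than here. That run cannot check the scaling or the size of the p-values in these data. Depth was 15681655 to 21986948 counts per sample, which limits the precision of genes with few counts.

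The 10 members, the lists, the motifs and the rule for named genes (all members, and in each of the 4 lists all DEGs and the 2 lowest and 2 highest log2 fold changes at a mean FPKM of at least 1, and the 3 nearest profiles for TOP2A and TOP2B) were chosen with earlier results of these data known. Overlapping genes and cell type markers are named as values beside a result. Alternatives were other filters, DESeq2 1.42.0, library size alone, limma 3.58.1 on log2(FPKM + 0.1) and log2(FPKM + 1), a replicate block, a DEG line of 2 and each sample left out.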

Additional observations from a re-analysis of the deposited data

How the results depend on the processing

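Each member kept its direction and stayed past the adjusted p under the alternatives run, but TOP2B fell by 0.23 on the log2 scale with library size alone and with limma on log2(FPKM + 0.1) and by 0.21 with limma on log2(FPKM + 1), against 0.36 as reported, and NCAPH2 by 0.38 with the last, against 0.59. With a log2 fold change line of 2, members that were lower DEGs numbered 0 in place of 8. The share of all genes past that line was not counted, so this 0 is not read as a result about the members. With limma on log2(FPKM + 1), the difference of NCAPD2 to NCAPD3 was 0.051 and that of NCAPH to NCAPH2 was -1.20. With limma on log2(FPKM + 0.1) they were 0.21 and -1.34. From the first of these fits to the second, the log2 fold change of NCAPD3 went from -1.12 to -1.29, and that of NCAPD2 from -1.07 to -1.08. The fits differ only in the added constant. With the principal transcript length, added after the data were seen, the TOP2A share was 76.4% in control and 52.6% in PB, and the condensin I share 70.3% and 65.8%. Leaving out each sample in turn gave 8 to 8 lower DEGs among the members, beside 1560 to 1604 among all 24200 genes tested. TOP2B was then between -0.38 and -0.34, NCAPH2 between -0.62 and -0.53, and TOP2A to TOP2B between -1.56 and -1.52. The replicate numbers did not pair the samples (correlations of deviations of same-numbered samples from -0.029 to 0.043). With a replicate block the difference of TOP2A to TOP2B was -1.54 and 8 members were lower DEGs, beside 1547 of the 24200 genes tested. Over all genes, lower and higher DEGs numbered 1629 and 1296 as reported, 769 and 608 with the filter raised to a mean of 1 FPKM, 1336 and 1809 with library size alone, 1197 and 1384 with limma on log2(FPKM + 0.1), and 496 and 329 with limma on log2(FPKM + 1). Genes lower and higher at the adjusted p numbered 6322 and 5829 as reported and 4879 and 7679 with library size alone, and with that scaling all 10 members were lower. Applied to the lists, which was added after the data were seen, library size alone gave 8 higher cohesin genes in place of 4, 2 lower, 3 higher and 0 lower DEGs in SMC5/6 in place of 4, 1 and 1, 2 higher and 1 lower DEG among the other topoisomerases in place of 1 and 3, 3 higher condensin partners in place of 1, and 1 higher G2/M gene in place of 0. The largest adjusted p of a member under any alternative was 0.00110, for NCAPH2. With 3 samples a group, exact tests cannot go below p = 0.1.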
